A study of Mus musculus with 10 samples.

Results

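The tubulin isotype genes examined here are 10 genes that encode the subunits of microtubules, 4 for alpha-tubulin (Tuba1a, Tuba1b, Tuba1c and Tuba4a) and 6 for beta-tubulin (Tubb2a, Tubb2b, Tubb3, Tubb4b, Tubb5 and Tubb6). They were chosen by name from the 24608 gene symbols of the deposited table, and all 10 were among the 7753 genes that had enough counts to be tested. RNA-seq was carried out on muscle stem cells (MuSCs) of adult mice with and without Trpm7, which encodes a Mg2+-permeable channel of the plasma membrane, in 5 control and 5 Trpm7 cKO libraries. Each library was made from 3000 sorted YFP-positive cells, 3 days after injury of the muscle by cardiotoxin (CTX), a snake venom toxin that lyses myofibers. Control mice were Trpm7 +/+, Pax7-CreERT2/+ and Rosa26-YFP, and Trpm7 cKO mice were Trpm7 flox/flox, Pax7-CreERT2/+ and Rosa26-YFP. Both genotypes received tamoxifen (TMX), so that Cre was active in control cells too, and Cre was driven by Pax7, a transcription factor of MuSCs, so that recombination was limited to cells that express Pax7 and their progeny. The labels do not state that the 5 libraries of a genotype came from separate animals, and the p-values therefore measure the spread between these libraries.

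Microtubules are hollow polymers of dimers, each of an alpha-tubulin and a beta-tubulin. They form the spindle that separates the chromosomes in mitosis, and they carry organelles and shape the cell between divisions. In muscle, they are rebuilt when myoblasts stop dividing, elongate and fuse, and the array then runs along the myofiber. Mammalian isotypes are very alike in the body of the protein and differ mainly in a short acidic tail at the carboxyl end, where most of the enzymes that modify tubulin act. Cells also adjust the stability of tubulin mRNA to the pool of free subunits, and TTC5 recognises the nascent amino end of alpha-tubulin and beta-tubulin for this purpose.

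The ends of the coding sequences show what the isotypes share and where they part. The starts are shown because they encode the stretch that TTC5 reads. They are taken from GENCODE M21 on GRCm38, 5′ to 3′ on the coding strand, with codons 2 to 4 in capitals.
Tuba1a, Tuba1b and Tuba1c: atgCGTGAGTGC
Tuba4a: atgCGCGAGTGC
Tubb2a: atgCGCGAGATC
Tubb2b: atgCGAGAGATC
Tubb3 and Tubb4b: atgAGGGAGATC
Tubb5: atgAGGGAAATC
Codon 4 was TGC in all 4 alpha genes and ATC in the beta genes printed. Codons 2 and 3 differed between members only in synonymous bases.

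The last 30 bases of the coding sequence are shown for 7 members because they encode the isotype-specific tail. The last 2 codons before the stop codon are in capitals.
Tuba1c: gaaggagacgatgagggtgagGAATATtaa
Tuba4a: tatgaggacgaggatgagggaGAAGAGtag
Tubb2a: gaggaggaggagggtgaagatGAGGCTtga
Tubb2b: gaggaggaagagggcgaggatGAGGCTtga
Tubb3: gaggaatcggaagcccaggggCCCAAGtga
Tubb4b: gaggaggaggctgaggaggagGTGGCTtag
Tubb5: ttcggagaggaggcagaagagGAGGCCtaa
Tuba1c ends with a tyrosine codon, TAT, the residue that the vasohibins remove and that tubulin tyrosine ligase puts back. Tuba4a has no such codon at its end. Tubb3 ends with a lysine codon, AAG, unlike the other beta genes printed.

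Over the whole coding sequence, Tuba1a was 98.3% identical to Tuba1b and 97.1% identical to Tuba1c, and Tuba1b was 97.9% identical to Tuba1c. Tuba4a was between 84.7% and 85.2% identical to the other alpha genes. Tubb2a and Tubb2b were 96.5% identical, and every other pair of beta genes lay between 80.2% and 85.7%. The 3 near-identical alpha genes lie together on chromosome 15, with Tuba1b at chr15:98931425-98934565, Tuba1a at chr15:98949837-98953703 and Tuba1c at chr15:99029891-99038110. Tubb2a (chr13:34074274-34078007) and Tubb2b (chr13:34126748-34130466) are neighbours too. The others stand apart, with Tuba4a at chr1:75214228-75219865, Tubb4b at chr2:25222160-25224702, Tubb3 at chr8:123411424-123422015, Tubb5 at chr17:35833921-35838306 and Tubb6 on chromosome 18. In each gene, the transcript used here has 4 exons.

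The reads come from the 3′ end of transcripts, so what matters for counting is how far that end is unique. In the bases after the stop codon, Tuba1a, Tuba1c, Tubb2a, Tubb2b, Tubb3 and Tubb6 shared no stretch of 31 bases with a transcript of another gene. Of the bases after the stop codon of Tuba1b, 84.7% were shared with a processed pseudogene and a non-coding RNA. In Tubb5, 12.3% of the bases after the stop codon were shared with other genes, 583 in number, all outside its last 500 bases. For Tuba4a and Tubb4b, 98.9% and 81.8% of these bases overlap genes on the opposite strand, Stk16 and Fam166a. Fam166a had 1 count in all 10 libraries together. Reads that reach into the coding sequence can be ambiguous, and over the last 500 bases the shared part was 60.6% in Tuba1a, 79.6% in Tuba1c, 94.0% in Tuba1b and 0% in Tubb5 and Tubb2b. In GENCODE M21, Gm49450 overlaps the 3′ end of Tuba1a and Gm20388 that of Tubb3 on the same strand, and values of these models are not used here. The shared part was 58.0% in Tubb2a and 87.6% in Tubb4b. The counts of Tuba1a, Tuba1b, Tuba1c, Tuba4a, Tubb2a, Tubb3 and Tubb4b are therefore uncertain to the extent that the authors' counting dropped or moved such reads.

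Control libraries held between 914361 and 1097709 counts and Trpm7 cKO libraries between 205986 and 581121, so that values of Trpm7 cKO rest on fewer molecules. Counts were scaled by edgeR's TMM method and are given as CPM, the counts of a gene relative to the scaled total of its library. One molecule is counted per transcript end, so CPM was not divided by transcript length, and levels of different genes are compared as molecules. Trpm7 itself had 66 to 84 counts per control library and 10 to 55 per Trpm7 cKO library, with a log2 fold change of -0.09 (standard error, SE, 0.20, adjusted p = 0.723, edgeR quasi-likelihood F test, Benjamini-Hochberg). The position of the floxed exon is not given in the sources used here, so these 3′-end counts were not taken as a check of the deletion. The paper reports the deletion from other assays, among them Trpm7 mRNA in freshly isolated MuSCs and TRPM7 staining of MuSCs on myofibers. The MuSC marker Pax7 had 167 to 224 counts per control library and 101 to 296 per Trpm7 cKO library. Of 19 tested MuSC identity genes, 10 rose in Trpm7 cKO and 4 fell. Over all 7753 genes, 24.6% were higher and 24.1% were lower.

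Some markers of other cell types differed between the genotypes as well. Each number called can be read against 24.1% lower and 24.6% higher over all genes. Of 29 leukocyte markers with counts, 21 were tested, and all 21 were higher in Trpm7 cKO. All 29 summed to 1608 to 7068 CPM there, against 452 to 757 CPM in control. Of 12 endothelial markers with counts, 3 were tested and were higher, and all 12 summed to 142 to 806 CPM against 8.58 to 84.5 CPM. A gene could pass the count filter through 1 genotype alone, as Ccr2 did (2.31 CPM in control and 69.0 CPM in Trpm7 cKO). For such markers the filter set the direction, so the number called higher carries no weight. Of 9 tested fibroadipogenic markers, 7 were higher and 1 was lower. All 12 listed summed to 4059 to 6933 CPM against 3226 to 5127 CPM. Of 20 tested proliferation genes, 17 were lower in Trpm7 cKO and 0 were higher, with sums of 1083 to 2484 CPM against 3670 to 5103 CPM, a list that includes genes of the mitotic spindle. In bulk libraries such as these, fewer cells of a type and less RNA per cell cannot be told apart. Apart from a fit with the leukocyte level as a covariate, the part of these differences in the tubulin values was not tested.

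Tubulin mRNA took a smaller part of the Trpm7 cKO transcriptome, and the loss lay mainly in beta-tubulin. Tubb5, the most abundant member, and the sparse isotypes Tuba4a and Tubb3 fell most, Tuba1a, Tubb2a and Tubb2b fell by less, and Tuba1b, Tuba1c, Tubb4b and Tubb6 did not pass the test. Of the 10 members, 6 were lower in Trpm7 cKO at an adjusted p below 0.05 and 0 were higher (edgeR quasi-likelihood F test, Benjamini-Hochberg), where over all 7753 genes 24.1% were lower and 24.6% were higher. At an unadjusted p below 0.05, 7 members were lower and 0 were higher, and no member was called higher by DESeq2 or limma-voom. The median log2 fold change was -0.47 over the 10 members, -0.41 over the 4 alpha genes and -0.52 over the 6 beta genes, against -0.01 over all genes. With a log2 fold change below -1.5 required as well, 2 members were called, Tuba4a and Tubb3, against 3.53% of all genes. The CPM of 4 members, Tuba4a, Tubb2a, Tubb3 and Tubb5, was lower in every Trpm7 cKO library than in any control library, against 17.9% of all genes. With the mean log2 level of the leukocyte markers as a covariate, 3 members were called, all lower. These were Tubb5 at -1.61 (adjusted p = 0.0482), Tubb3 at -4.47 (adjusted p = 0.0193) and Tuba1c at -1.73 (adjusted p = 0.0319, edgeR quasi-likelihood F test, Benjamini-Hochberg), and the calls of Tuba1a, Tuba4a, Tubb2a and Tubb2b were lost. In that fit, Tuba4a was at -1.88 (adjusted p = 0.218), Tubb2a at -0.60 (adjusted p = 0.455), Tubb2b at -0.61 (adjusted p = 0.437) and Tuba1a at 0.30 (adjusted p = 0.689, edgeR quasi-likelihood F test, Benjamini-Hochberg). The summed level of these markers was higher in every Trpm7 cKO library than in any control library, so that the covariate and the genotype cannot be told apart in such a fit.

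**Figure D1:**
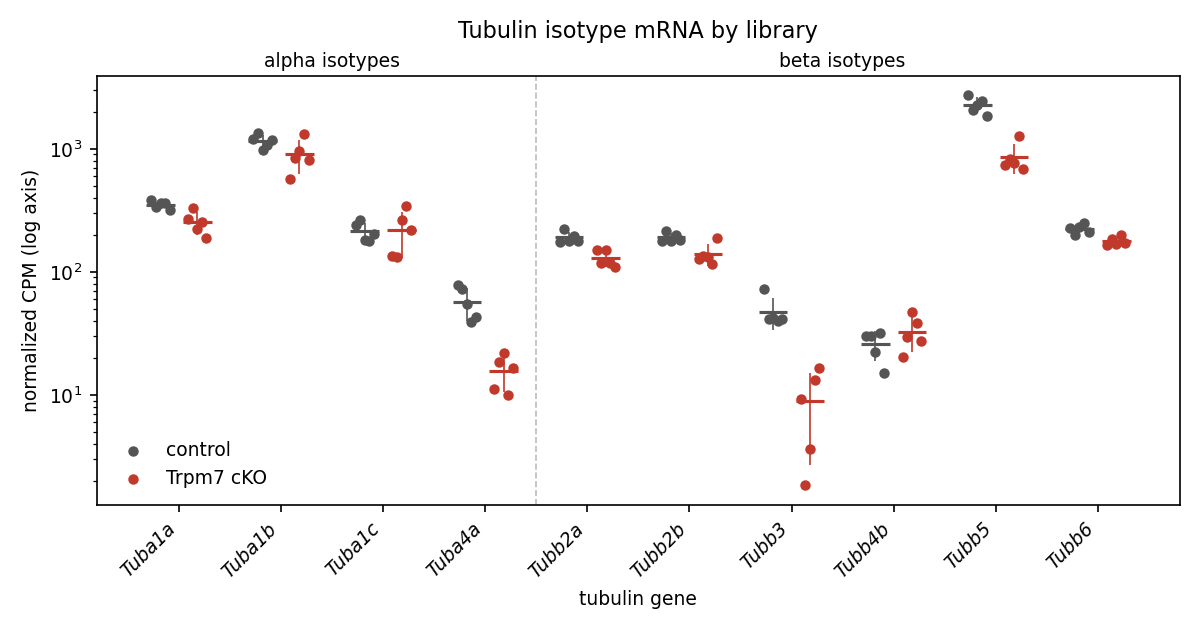
Normalized CPM (log axis) of the 10 tubulin genes in each of 5 control libraries (grey) and 5 Trpm7 cKO libraries (red). Horizontal bars are means and vertical bars are 1 SD. The 2 groups are apart for Tuba4a, Tubb2a, Tubb3 and Tubb5 and overlap for the other 6 genes.

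Tubb5, the class I beta-tubulin found in most dividing cells, was the tubulin gene with the highest level in control libraries. It had 2723, 2066, 2282, 2451 and 1860.3 CPM in control replicates 1 to 5 and 741, 832, 764, 1277 and 684 CPM in Trpm7 cKO replicates 1 to 5. The groups did not overlap, and Trpm7 cKO replicate 4 was the highest of its genotype, above the other 4 by more than their own range. The mean fell from 2277 ± 334 to 859.6 ± 239 CPM (SD, n = 5 each). This gave a log2 fold change of -1.40 (SE 0.17, adjusted p = 2.23e-06, edgeR quasi-likelihood F test, Benjamini-Hochberg), a 2.63-fold lower level. Without Trpm7 cKO replicate 4, the log2 fold change was -1.61, past the -1.5 threshold.

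Tubb3, class III beta-tubulin, is best known as a marker of neurons. Its level was 72.6, 41.3, 41.8, 40.2 and 41.7 CPM in control replicates 1 to 5 and 9.24, 1.84, 3.65, 13.3 and 16.6 CPM in Trpm7 cKO replicates 1 to 5. Every Trpm7 cKO library was below every control library, and control replicate 1 stood above the other controls, which lay close together. The Trpm7 cKO values rest on 5, 1, 1, 8 and 3 counts. Tubb3 had a log2 fold change of -2.48 (SE 0.36, adjusted p = 1.35e-05, edgeR quasi-likelihood F test, Benjamini-Hochberg), which is 5.57-fold lower and the largest fall of the 10 genes. It was -2.26 without control replicate 1. Of the 17 listed Schwann cell and neural genes, 4 were tested, 1 was higher and 3 were not called. Over all genes, 24.6% were higher. The summed level of the list was 495 to 563 CPM in control and 683 to 955 CPM in Trpm7 cKO libraries, without overlap. The higher one was Pmp22, which is also expressed outside nerve (log2 fold change 2.01, adjusted p = 2.86e-08, edgeR quasi-likelihood F test, Benjamini-Hochberg). Ncam1, an adhesion molecule of neurons and of muscle cells, was at 345 CPM in control and 371 CPM in Trpm7 cKO. In any library, Sox10, the defining factor of Schwann cells, had at most 2 counts, the neuronal genes Elavl4 and Rbfox3 at most 1, Elavl3 at most 3 and Stmn2 at most 4. The part of such cells in the Tubb3 values was not tested.

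Tuba4a, the alpha isotype without an encoded tyrosine at its end, was sparse in both genotypes. Control replicates 1 to 5 had 77.6, 72.3, 54.7, 39.2 and 42.8 CPM, and Trpm7 cKO replicates 1 to 5 had 11.1, 18.4, 21.9, 9.94 and 16.6 CPM. The groups did not overlap, although control values ranged widely and the Trpm7 cKO values rest on 3 to 10 counts. From the fit across all genes, the log2 fold change was -1.96 (SE 0.29, adjusted p = 1.84e-05, edgeR quasi-likelihood F test, Benjamini-Hochberg), 3.89-fold lower. Stk16, whose exons overlap the 3′ end of Tuba4a on the opposite strand, had 26, 18, 20, 22 and 17 counts in the controls, in replicate order, and 10, 14, 11, 14 and 1 in the Trpm7 cKO libraries. After scaling, the log2 fold change of Stk16 was 0.11 (adjusted p = 0.770, edgeR quasi-likelihood F test, Benjamini-Hochberg).

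Tubb2a and Tubb2b, a pair of near-identical beta isotypes that are abundant in neurons, were at almost the same level as each other. Tubb2a had 175, 221, 179, 197 and 179 CPM in control replicates 1 to 5 and 152, 118, 149.8, 118 and 110.4 CPM in Trpm7 cKO replicates 1 to 5. Tubb2b had 178, 214, 179, 198 and 183 CPM in the same control libraries and 127, 134, 132, 116 and 188 CPM in the Trpm7 cKO libraries. Tubb2a did not overlap between the genotypes, and Tubb2b overlapped through Trpm7 cKO replicate 5 alone, where it rests on 34 counts. Both were lower, with a log2 fold change of -0.55 for Tubb2a (SE 0.15, adjusted p = 0.00422) and -0.49 for Tubb2b (SE 0.15, adjusted p = 0.0107, edgeR quasi-likelihood F test, Benjamini-Hochberg). In control libraries, the ratio of Tubb2a to Tubb2b counts was 0.999 ± 0.0212 (SD, n = 5), and it ranged between 0.981 and 1.03. It ranged more widely in Trpm7 cKO libraries, between 0.588 and 1.19, where the counts were fewer.

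Tuba1a, the major alpha isotype of young neurons, was the third most abundant member. Its level was 383, 334, 364, 365 and 316 CPM in control replicates 1 to 5 and 268, 329, 223, 255 and 188 CPM in Trpm7 cKO replicates 1 to 5. Only Trpm7 cKO replicate 2 reached into the control range. Tuba1a changed by a log2 fold change of -0.45 (SE 0.15, adjusted p = 0.0146, edgeR quasi-likelihood F test, Benjamini-Hochberg), and with library totals in place of TMM it was -0.36 and not called (adjusted p = 0.0730).

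Tuba1b, a broadly expressed isotype and the leading source of alpha-tubulin mRNA here, did not pass the test. Control replicates 1 to 5 had 1201, 1354, 976, 1082 and 1178 CPM, and Trpm7 cKO replicates 1 to 5 had 567, 845, 961, 1321 and 817 CPM. Replicates 1, 2, 3 and 5 of Trpm7 cKO lay below all controls, and replicate 4 lay among the highest controls. Its log2 fold change was -0.36 (SE 0.18, adjusted p = 0.104, 95% interval -0.73 to 0.01, edgeR quasi-likelihood F test, Benjamini-Hochberg). Without Trpm7 cKO replicate 4, it was -0.57 (adjusted p = 0.00310, edgeR quasi-likelihood F test, Benjamini-Hochberg). Tuba1b was also called with no filter on low counts (-0.57, adjusted p = 0.00124) and with at least 10 counts required in every library (-0.48, adjusted p = 0.0390, edgeR quasi-likelihood F test, Benjamini-Hochberg).

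Gm3756, a processed pseudogene on chromosome 9 that is closest to Tuba1b with 98.7% identity, was counted in some libraries and not in others. In replicate order, the controls had 0, 1, 0, 24 and 0 counts of it, and the Trpm7 cKO libraries had 0, 0, 135, 137 and 43. Control replicate 4 and Trpm7 cKO replicates 3, 4 and 5 thus held nearly all of its 340 counts, and the gene was not among those tested. Gm3756 was also 97.9% identical to Tuba1a and 97.6% identical to Tuba1c. Transcription of the pseudogene and reads of Tuba1b, Tuba1a or Tuba1c placed there cannot be told apart from a count table. Adding all of its counts to Tuba1b is therefore an assumption. When its counts were added to those of Tuba1b, Trpm7 cKO replicate 3 reached 1454 CPM and replicate 4 to 1548 CPM, above every control, and the log2 fold change of Tuba1b was -0.09 (adjusted p = 0.746, edgeR quasi-likelihood F test, Benjamini-Hochberg).

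Tuba1c, the other broadly expressed alpha isotype, had no common direction. Its level was 239, 262, 182, 179 and 203 CPM in control replicates 1 to 5 and 135, 132, 263, 341 and 221 CPM in Trpm7 cKO replicates 1 to 5. Trpm7 cKO replicates 1 and 2 lay below all controls, replicates 3 and 4 above all, and replicate 5 within. The log2 fold change was 0.03 (SE 0.23, adjusted p = 0.931, 95% interval -0.45 to 0.51, edgeR quasi-likelihood F test, Benjamini-Hochberg), and its sign changed with the scaling, the tool and the libraries used. The leukocyte marker sums of Trpm7 cKO replicates 1 to 5 were 4133, 1608, 4173, 7068 and 6649.7 CPM, and their part in the Tuba1c values was not tested.

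Tubb6, class V beta-tubulin, is known in muscle for its rise in regenerating and dystrophic fibers. Control replicates 1 to 5 had 228, 198, 232, 248 and 212 CPM, and Trpm7 cKO replicates 1 to 5 had 166, 186, 168, 200.5 and 171 CPM. Trpm7 cKO replicate 4 was the only one to reach the lowest control. The log2 fold change was -0.32 (SE 0.13, adjusted p = 0.0562, 95% interval -0.60 to -0.04, edgeR quasi-likelihood F test, Benjamini-Hochberg), so Tubb6 lay at the threshold, and DESeq2 called it (-0.39, Benjamini-Hochberg adjusted p = 0.0158). It was also called with no filter on low counts (-0.52, adjusted p = 0.0122, edgeR quasi-likelihood F test, Benjamini-Hochberg).

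Tubb4b, class IVb beta-tubulin, a broadly expressed isotype also used in cilia, was the least abundant member in control. Its level was 29.8, 29.9, 22.5, 32.1 and 15.05 CPM in control replicates 1 to 5 and 20.3, 29.4, 47.5, 38.1 and 27.6 CPM in Trpm7 cKO replicates 1 to 5. Trpm7 cKO replicates 3 and 4 lay above all controls, and the other 3 lay among them. Its log2 fold change was 0.29 (SE 0.27, adjusted p = 0.390, 95% interval -0.27 to 0.85, edgeR quasi-likelihood F test, Benjamini-Hochberg).

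**Figure D2:**
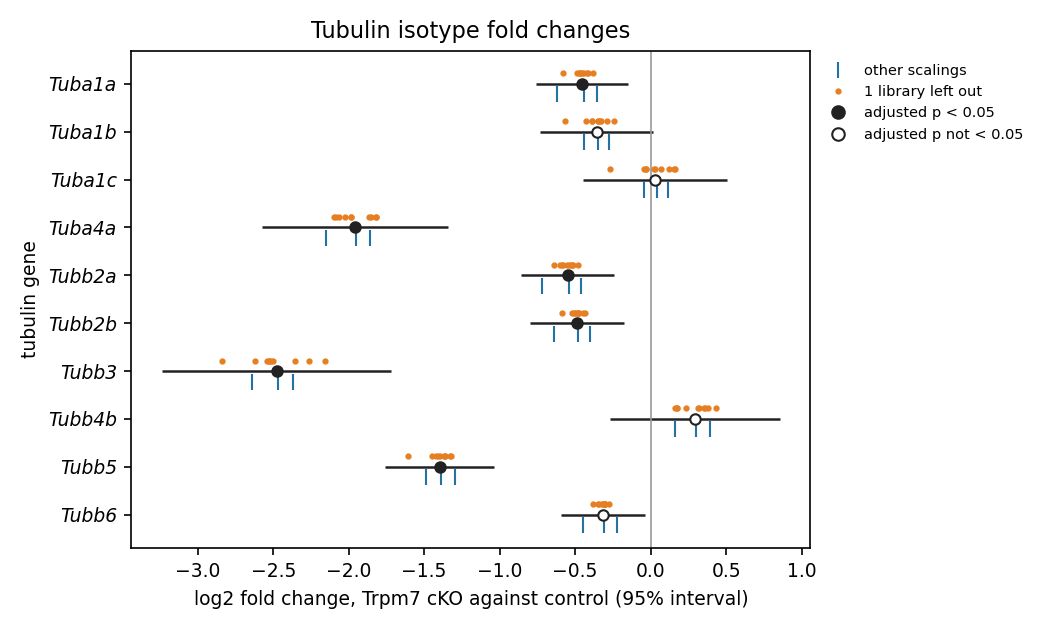
Log2 fold change of each tubulin gene, Trpm7 cKO against control, from edgeR's quasi-likelihood test, with its 95% interval (black line). Filled circles are genes with an adjusted p below 0.05, blue ticks are the values under 3 other scalings and orange dots the values with each of the 10 libraries left out. Tubb3, Tuba4a and Tubb5 stay below -1 under each of these settings, and Tuba1c lies on both sides of 0.

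The order of the isotypes by CPM differed between the genotypes, within the limits given above for counting at shared 3′ ends. In control, Tubb5 was first, above Tuba1b in 5 of 5 libraries, and Tuba1b was above Tuba1a, and Tuba1a above Tubb6, in 5 of 5 libraries. Tubb6, Tuba1c, Tubb2b and Tubb2a followed at means between 190.3 and 223 CPM with overlapping ranges, and were not separated by their spread. Tuba4a and Tubb3 came next, also with overlapping ranges, and Tubb4b was last, below Tubb3 in 5 of 5 libraries. In Trpm7 cKO, Tuba1b led with a mean of 902 CPM and was above Tubb5 in 4 of 5 libraries, with overlapping ranges. Tuba1a, Tuba1c, Tubb6, Tubb2b and Tubb2a were again close, each range overlapping that of the next. Tubb4b was above Tuba4a in 5 of 5 Trpm7 cKO libraries, and below it in control, where the mean was 25.9 ± 7.07 CPM for Tubb4b and 57.3 ± 17.2 CPM for Tuba4a (SD, n = 5). Tubb3 had the lowest mean in Trpm7 cKO, and its range overlapped that of Tuba4a.

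The sums by family show where the loss lay, as a description with no test. Alpha-tubulin summed to 1900.3, 2022, 1577, 1665 and 1740.0 CPM in control replicates 1 to 5 and to 981, 1325, 1469, 1927 and 1242 CPM in Trpm7 cKO replicates 1 to 5. These ranges overlapped through Trpm7 cKO replicate 4. Beta-tubulin summed to 3406, 2771, 2936, 3166 and 2491 CPM in control and to 1216, 1301, 1264, 1763 and 1197 CPM in Trpm7 cKO, without overlap. Means were 1781 ± 179.7 against 1389 ± 349 CPM for alpha and 2954 ± 353 against 1348 ± 235 CPM for beta (SD, n = 5 each). Tubb5 made up most of the beta difference.

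The ratio of beta to alpha counts within a library does not depend on the scaling between libraries. It was 1.79, 1.37, 1.86, 1.90 and 1.43 in control replicates 1 to 5 and 1.24, 0.982, 0.861, 0.915 and 0.964 in Trpm7 cKO replicates 1 to 5. Beta-tubulin counts exceeded alpha-tubulin counts in every control library. In Trpm7 cKO, the counts of the families were about equal on average, at 0.992 ± 0.146 (SD, n = 5). As given above, the last bases of Tuba1a, Tuba1b and Tuba1c are largely shared with other genes, and those of Tubb5 are not. Counting can therefore affect the alpha and beta sums unequally, so the ratio does not give the relative size of the mRNA pools. With the counts of Gm3756 added to Tuba1b, the ratio was 0.644, 0.818 and 0.810 in Trpm7 cKO replicates 3, 4 and 5, further from control. All 10 genes together took 0.448% ± 0.0384 of the counts in control and 0.269% ± 0.0671 in Trpm7 cKO libraries (SD, n = 5 each), and the highest Trpm7 cKO library, replicate 4 at 0.383%, was below the lowest control at 0.400%.

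Within the beta family, the mixture of isotypes differed, given here as the share of each gene in the beta counts of a library. Tubb5 held 79.9%, 74.6%, 77.7%, 77.4% and 74.7% in control replicates 1 to 5 and 60.9%, 63.9%, 60.4%, 72.5% and 57.1% in Trpm7 cKO replicates 1 to 5. Tubb6 held 6.69%, 7.16%, 7.89%, 7.83% and 8.50% in control and 13.7%, 14.3%, 13.3%, 11.4% and 14.3% in Trpm7 cKO. Both shares were apart between the genotypes, Tubb5 lower and Tubb6 higher. As shares of 1 total, they are not independent, and the larger share of Tubb6 went with a CPM that was not higher. The counts of Tubb6 per count of Tubb5 averaged 0.0992 ± 0.0109 in control and 0.215 ± 0.0346 in Trpm7 cKO (SD, n = 5 each), again without overlap.

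The other beta isotypes held small shares. The Tubb4b share was 0.868% ± 0.192 in control and 2.43% ± 0.783 in Trpm7 cKO (SD, n = 5 each), higher without overlap, on 5 to 23 counts per Trpm7 cKO library. The Tubb2a share was 6.53% ± 1.09 in control and 9.85% ± 2.34 in Trpm7 cKO, and the Tubb2b share was 6.53% ± 1.00 and 10.7% ± 3.24 (SD, n = 5 each), with overlap in both. Tubb3 held 1.60% ± 0.332 in control and 0.665% ± 0.487 in Trpm7 cKO (SD, n = 5 each), with overlap through Trpm7 cKO replicate 5.

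Within the alpha family, the mixture was closer between the genotypes. Tuba1b held 65.0% ± 2.45 of alpha counts in control and 64.3% ± 3.99 in Trpm7 cKO, and Tuba1a held 19.96% ± 2.68 and 19.1% ± 6.45 (SD, n = 5 each). Tuba4a was apart, with 4.08%, 3.58%, 3.47%, 2.35% and 2.46% in control replicates 1 to 5 and 1.13%, 1.39%, 1.49%, 0.516% and 1.33% in Trpm7 cKO replicates 1 to 5. The Trpm7 cKO libraries fell into different patterns for the other genes. Replicates 1 and 2 had Tuba1a shares of 27.3% and 24.9%, above all controls, and replicates 3, 4 and 5 had 15.2%, 13.2% and 15.1%, below all controls. The same replicates 3, 4 and 5 had Tuba1c shares of 17.9%, 17.7% and 17.8%, and controls lay between 10.7% and 13.0%. Replicate 1, at 13.7%, was also above every control, and replicate 2 was below them all. Replicates 3, 4 and 5 are also the Trpm7 cKO libraries with counts of Gm3756. The part of these counts, and of the leukocyte levels given above, in the shares was not tested.

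**Figure D3:**
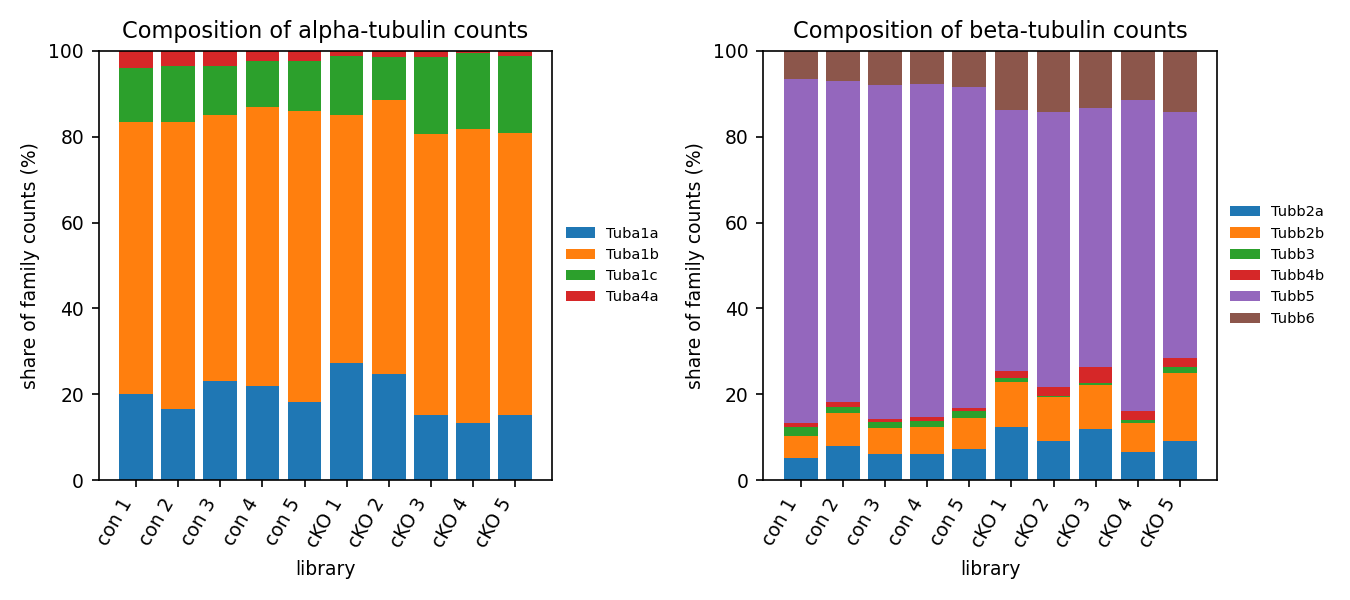
Share of each isotype in the alpha-tubulin counts (left) and beta-tubulin counts (right) of each library (% of family counts), con for control and cKO for Trpm7 cKO. In the right panel, Tubb5 takes 74.6% to 79.9% of control bars and 57.1% to 72.5% of Trpm7 cKO bars, and Tubb6 is larger in every Trpm7 cKO bar. In the left panel, Tuba1c is larger than in any control in Trpm7 cKO replicates 1, 3, 4 and 5.

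The other tubulin genes analysed had few counts in these libraries. Tubg1 averaged 11.6 ± 2.73 CPM in control and 15.2 ± 6.27 CPM in Trpm7 cKO (SD, n = 5 each). Tubg1, the gamma-tubulin that nucleates microtubules, was counted 14, 12, 11, 13 and 6 times in the controls and 6, 12, 3, 6 and 4 times in the Trpm7 cKO libraries, in replicate order. Tube1, encoding the epsilon-tubulin of centrioles, had between 1 and 4 counts in each library, and Tubd1, its delta counterpart, had at most 3. None of these was tested, at these counts.

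Genes that act on tubulin gave a mixed picture, in which the folding machinery and the modifying enzymes held the lowest medians. The lists were chosen by function, and each count can be read against 24.1% lower and 24.6% higher over all genes. Of 9 tested genes of the gamma-tubulin ring complex, which templates new microtubules, 1 was lower, 1 was higher and 7 were not called, with a median log2 fold change of -0.13. The called genes were Mzt1 at -0.58 (adjusted p = 0.0460) and Mzt2 at 1.22 (adjusted p = 0.00107, edgeR quasi-likelihood F test, Benjamini-Hochberg), both small subunits of the complex.

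Of 19 tested genes that fold tubulin, 8 were lower, 2 were higher and 9 were not called, and the median log2 fold change was -0.32. This list holds prefoldin, the CCT chaperonin and the tubulin cofactors, which pass new tubulin along until the dimer forms. The lowest were Tbca, the cofactor that holds folded beta-tubulin, which fell from 678 ± 62.3 to 262 ± 83.9 CPM (log2 fold change -1.33, adjusted p = 5.63e-06), and Tcp1, a CCT subunit, which fell from 104 ± 24.2 to 41.1 ± 10.4 CPM (-1.28, adjusted p = 6.03e-05, SD, n = 5 each, edgeR quasi-likelihood F test, Benjamini-Hochberg). The higher ones were Pfdn5, a prefoldin subunit, at 1.43 (adjusted p = 2.26e-05) and Tbcel, which lowers tubulin stability, at 0.78 (adjusted p = 0.0349, edgeR quasi-likelihood F test, Benjamini-Hochberg). Summed over the list, levels were 5330.4 to 5818 CPM in control and 3289 to 3665 CPM in Trpm7 cKO libraries, without overlap.

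For the degradation of tubulin mRNA, the list held Ttc5, its partner Scaper and subunits of the CCR4-NOT deadenylase. Of 11 tested genes, 4 were lower, 0 were higher and 7 were not called, with a median of -0.19, and Ttc5 was too sparse to test. The lowest were Cnot9, at a log2 fold change of -1.39 (adjusted p = 7.53e-05), and Cnot6l, one of the deadenylase's catalytic subunits, at -1.22 (adjusted p = 2.41e-06, edgeR quasi-likelihood F test, Benjamini-Hochberg).

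Of 8 tested genes that modify tubulin, 4 were lower, 1 was higher and 3 were not called, and the median log2 fold change was -0.52. Vash2, a vasohibin that removes the terminal tyrosine of alpha-tubulin, fell from 40.3 ± 9.93 to 6.45 ± 4.13 CPM (log2 fold change -2.42, adjusted p = 1.26e-05, SD, n = 5 each), and Ttll4, which adds glutamate to the tubulin tail, was at -1.22 (adjusted p = 8.06e-04, edgeR quasi-likelihood F test, Benjamini-Hochberg). Sirt2, a deacetylase that acts on alpha-tubulin and on other proteins, was higher at 1.46 (adjusted p = 1.20e-04, edgeR quasi-likelihood F test, Benjamini-Hochberg).

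Among 16 tested genes for proteins that stabilise microtubules or track their plus ends, 6 were lower, 2 were higher and 8 were not called, with a median of -0.12. The lowest were Map1s at -1.26 (adjusted p = 4.26e-04) and Clasp1 at -1.05 (adjusted p = 1.55e-05), and the highest were Mtus1 at 2.28 (adjusted p = 2.43e-06) and Mapre3 at 1.27 (adjusted p = 2.35e-04, edgeR quasi-likelihood F test, Benjamini-Hochberg). Clasp1 and Mapre3 encode plus-end proteins. Of 5 tested genes for destabilising and severing proteins, 1 was lower, Fignl1 at -1.31 (adjusted p = 1.34e-04, edgeR quasi-likelihood F test, Benjamini-Hochberg), and 4 were not called.

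**Figure D4:**
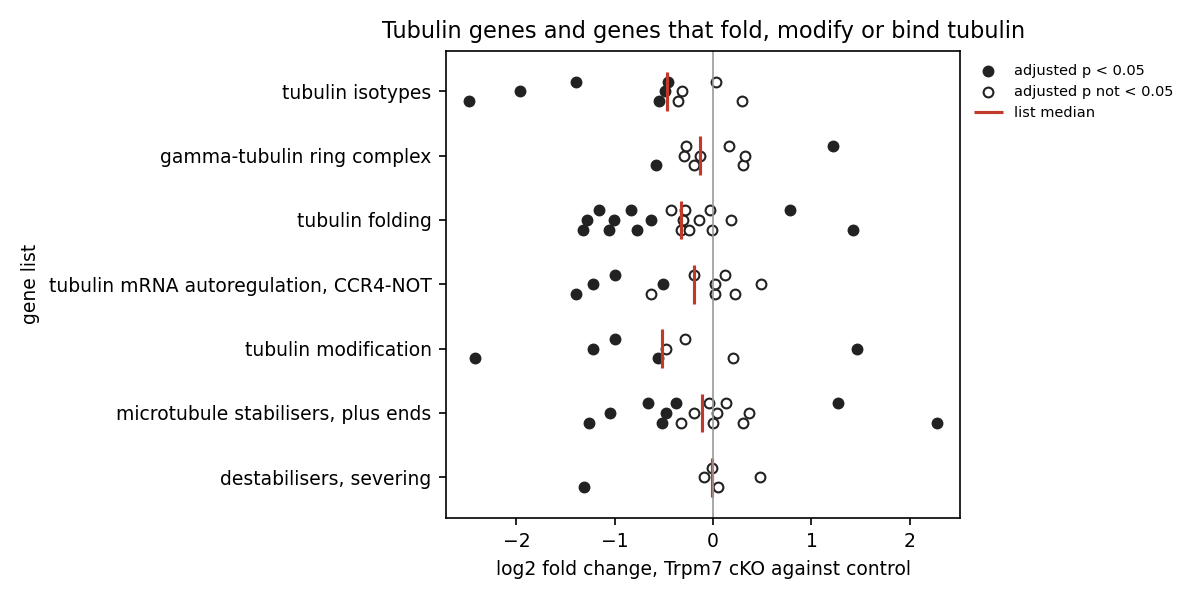
Log2 fold change, Trpm7 cKO against control, of each tested gene in the tubulin isotype list and in 6 lists of genes that fold, modify or bind tubulin or regulate its mRNA. Filled circles have an adjusted p below 0.05 and red bars are list medians. The medians lie between -0.52 for tubulin modification and -0.01 for destabilisers, and called genes lie below 0 in each list and also above 0 in the ring complex, folding, modification and stabiliser lists.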

How the data were processed

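MuSCs of 5 control and 5 Trpm7 cKO libraries were profiled by 3′-end RNA-seq (CEL-Seq2 with UMIs). Per the submitters' processing notes, UMI-tools 1.1.4, Trim Galore 0.6.10, HISAT2 2.2.1, featureCounts 2.0.6, DESeq2 1.30.1 and the build GRCm38 were used, and the authors deposited raw UMI counts per gene as integers. The annotation release and strand setting of the counting are not given in the sources used here. Genotypes came from the labels. Trpm7 cKO replicates 4 and 5 carry a common number in their library names, which the labels do not explain. The table had 12 repeated symbols, for which the entry with the larger total was kept.

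The analysis used edgeR 4.0.16 (R 4.3.3) with filterByExpr (minimum count 10, minimum total 15), TMM, a robust quasi-likelihood fit with genotype as the only term, and Benjamini-Hochberg adjustment over 7753 genes, tested on simulated data. The stricter threshold adds a log2 fold change beyond 1.5, which the methods state for DESeq2. Intervals and SDs over 5 libraries are given, and a count of 0 to 3 in a library gives little precision. Alternatives were DESeq2 1.42.0, limma-voom (limma 3.58.1), RLE factors, library totals, scaling on MuSC identity genes, other filters, thinning to the smallest library, a replicate block, a leukocyte covariate, Trpm7 cKO replicates 4 and 5 summed, and each library left out. Counts per 3000 sorted cells, the addition of Gm3756 to Tuba1b and shares with replicates 4 and 5 summed were chosen after seeing the data.

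The text names all 10 members, other tubulin genes with at least 10 counts in all, and in each companion list up to 2 called genes with the highest and 2 with the lowest log2 fold change. Gm3756, Stk16 and Fam166a were named for shared sequence, after their values were seen. The members and lists were chosen with earlier results of these data known. Coding sequences and positions came from GENCODE M21 on GRCm38, and shared sequence was counted in matches of 31 bases on both strands. Coding sequences were aligned with Biopython 1.88. Tuba3a, Tuba3b, Tuba8, Tubal3 and Tubb1 were not analysed here. The ends of some coding sequences are not reported here.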

Additional observations from a re-analysis of the deposited data

Results flagged for a closer look

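Of 40 groups of 5 values examined (CPM and family share of 10 genes in each genotype), 3 held a library far from the other 4 by Dixon's test at the 95% level, where chance alone gives about 1 in 20. Tubb5 in Trpm7 cKO replicate 4 was 1277 CPM, with the others between 684 and 832 CPM. Tubb3 in control replicate 1 was 72.6 CPM, with the others between 40.2 and 41.8 CPM. Tubb2b in Trpm7 cKO replicate 5, the smallest library, was 188 CPM on 34 counts, with the others between 116 and 134 CPM. Each of these genes was called lower with that library and without it.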

How the results depend on the processing

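The 6 called genes kept their direction in each setting in which they were tested, except Tuba1a with the leukocyte covariate (0.30). Tuba4a and Tubb3 were too sparse to test with thinned counts or at least 10 counts in every library. The number of members called, all lower, was 6 in the fit described above, 2 with counts thinned to the smallest library (7 members tested), 3 with the leukocyte covariate, 8 with no filter, 10 with counts per 3000 sorted cells, 2 with the log2 fold change beyond 1.5 as well, and 6 to 8 with 1 library left out, 8 being without Trpm7 cKO replicate 4. The leukocyte covariate differs between the genotypes, and thinning leaves fewer counts; for the other shifts the cause was not tested. With the replicate block, 6 were called, and no member changed its call. Same-numbered libraries had correlations between -0.12 and 0.18, and 1 of 5 control libraries correlated best with its own number. With so few libraries, these values cannot decide whether same-numbered libraries share more than a number. Tuba1c, at 0.03, was below 0 under DESeq2 (-0.049), limma-voom (-0.062), scaling on MuSC identity genes (-0.045), no filter (-0.18), at least 10 counts in every library (-0.085), thinning (-0.033), the replicate block (-0.036), the leukocyte covariate (-1.73), replicates 4 and 5 summed (-0.029) and counts per 3000 sorted cells (-1.13), and between -0.27 and 0.16 with 1 library left out. Tubb4b was at -0.87 per 3000 sorted cells. That scaling moved the median of all genes to -1.15, scaling on MuSC identity genes to -0.16 and library totals to 0.10. Adding Gm3756 to Tuba1b moved the Tuba1b share from -0.70 to 2.70 percentage points (Trpm7 cKO minus control), and thinning moved the Tuba4a share from -2.02 to -1.19 and the Tubb4b share from 1.56 to 0.78. Over all genes, 1866 were lower and 1908 higher. Without a filter, 2881 were higher. With at least 10 counts in every library, 940 were lower and 957 higher, with thinning 448 and 524, with the leukocyte covariate 135 and 388, per 3000 sorted cells 5162 and 380, and beyond 1.5 274 and 658.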
